A study of Mus musculus with 15 samples.

Results

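A list of 40 genes of protein folding in the endoplasmic reticulum (ER) and of the unfolded protein response was followed in cultured mouse articular chondrocytes after the tankyrases were depleted or inhibited. All 40 were found among the 24134 Entrez gene IDs of the count tables, and all 40 were tested in every comparison. The genes were picked by function, and their changes after *Tnks* and *Tnks2* knockdown, XAV939 and IWR-1, each against its control, were in view when they were picked. *Ero1a* was picked knowing that it differed between XAV939 and the knockdown. Values in those 3 comparisons are therefore a description, and no p-value is printed for them. The same holds for *Ero1a* in every comparison. A call in these cases marks a threshold passed by values known when the genes were picked, and is a description too. The differences between inhibitors and between drug and knockdown effects are differences of the 3 comparisons above. The p-values and counts given for them are therefore not independent of the choice of genes. By role, 11 genes code for chaperones of the ER lumen and their partners, 6 for disulfide-forming enzymes, 7 for stress sensors and transcription factors, 5 for the output of the factors ATF4 and CHOP, 6 for ER-associated degradation and 5 for the folding and export of collagen.

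The RNA sequencing covered 15 libraries of articular chondrocytes at passage 0, isolated from the femoral condyles and tibial plateaus of ICR mice 4 to 5 days old. There were 3 biological replicates in each of 5 groups. In the siRNA experiment the cells received control siRNA (siCtrl) or siRNAs against both *Tnks* and *Tnks2* (siTnks/2), 1 siRNA for each gene per the study's text, for a time that was not stated. In the drug experiment they received DMSO, 10 μM XAV939 or 10 μM IWR-1 for 108 h. Both drugs inhibit the tankyrases, poly(ADP-ribose) polymerases that mark proteins for degradation. XAV939 binds the nicotinamide site of the catalytic domain and IWR-1 the neighbouring adenosine site. All 5 groups share the same source of cells, with no genetic change stated. Each inhibitor was used at 1 dose and 1 time, so no dose response could be read, and both were compared with the same 3 DMSO libraries.

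Secreted and membrane proteins fold in the ER with the help of chaperones such as BiP and of enzymes that form disulfide bonds. When unfolded protein builds up, the sensors IRE1α, PERK and ATF6 start the unfolded protein response. IRE1α splices the *Xbp1* mRNA and ATF6 is cut to an active factor, and both raise chaperones and degradation factors through ER stress response elements in promoters. PERK phosphorylates eIF2α, which slows translation in general but allows translation of ATF4, and ATF4 with its partners switches on amino acid and stress genes, CHOP among them. Other kinases that sense amino acid shortage or other stresses converge on eIF2α, so that ATF4 is shared by the wider integrated stress response. Chondrocytes secrete large amounts of collagen, and their ER carries prolyl hydroxylases, the collagen chaperone HSP47 and an enlarged export machinery. RNA levels do not show splicing of *Xbp1*, cleavage of ATF6 or translation of ATF4, none of which was measured by these counts.

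Both arms of the response have their own promoter elements, and their letters are shown because the changes are also set out by element. RefSeq promoter windows, 250 bases before to 50 bases after the start site on GRCm38.p6, were at hand for 34 of the 40 genes. Letters were searched on both strands, with no overlap between matches of different elements in these windows. The ER stress response element, spelled CCAAT, 9 bases of any kind and CCACG, was present in 10 of the 34 windows (29.4%) and in 37 of 27025 genes with a window (0.137%). Its second form, spelled ATTGG, 1 base of any kind and CCACG, was present in *Herpud1* and *Dnajb11* and in 0.0444% of genes. The shorter core TGACGTG, bound by ATF6 and XBP1, was present in *Hspa5*, *Mia3*, *Sec23a* and *Sec24d* and in 2.22% of genes. The composite C/EBP-ATF element of ATF4 targets, spelled TGATGNAA, was present in *Chac1*, *Trib3*, *Asns* and *Herpud1* and in 4.51% of genes. A match of letters is a description and not a bound site, and 16 windows held none of these elements. Each sequence reads 5′ to 3′ on the strand of the gene and covers the 250 bases that end at the base before the start site, and capitals mark the fixed letters of an element on either strand. *Hspa5* (chr2:34771840-34772089, plus strand) has the short core and an ER stress response element, *Hsp90b1* (chr10:86705445-86705694, minus strand) has 2 ER stress response elements in opposite orientation, and *Herpud1* (chr8:94386179-94386428, plus strand) has both a composite element and the second form. *Chac1* (chr2:119350992-119351241, plus strand) and *Asns* (chr6:7693210-7693459, minus strand) have the composite element alone.
Hspa5: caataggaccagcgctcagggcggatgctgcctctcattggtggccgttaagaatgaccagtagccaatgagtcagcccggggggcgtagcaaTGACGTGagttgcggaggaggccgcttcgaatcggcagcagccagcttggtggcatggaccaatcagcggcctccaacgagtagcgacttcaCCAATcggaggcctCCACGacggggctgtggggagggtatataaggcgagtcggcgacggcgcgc
Hsp90b1: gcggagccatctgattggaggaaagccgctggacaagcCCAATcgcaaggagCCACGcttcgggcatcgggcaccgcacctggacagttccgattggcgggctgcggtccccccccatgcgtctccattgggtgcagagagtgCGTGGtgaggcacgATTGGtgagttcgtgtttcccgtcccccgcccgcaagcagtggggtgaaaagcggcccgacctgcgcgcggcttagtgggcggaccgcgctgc
Herpud1: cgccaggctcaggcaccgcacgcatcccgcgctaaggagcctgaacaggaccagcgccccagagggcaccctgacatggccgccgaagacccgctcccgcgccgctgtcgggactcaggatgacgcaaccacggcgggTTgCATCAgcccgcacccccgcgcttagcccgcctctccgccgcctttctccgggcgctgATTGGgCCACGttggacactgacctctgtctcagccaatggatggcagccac
Chac1: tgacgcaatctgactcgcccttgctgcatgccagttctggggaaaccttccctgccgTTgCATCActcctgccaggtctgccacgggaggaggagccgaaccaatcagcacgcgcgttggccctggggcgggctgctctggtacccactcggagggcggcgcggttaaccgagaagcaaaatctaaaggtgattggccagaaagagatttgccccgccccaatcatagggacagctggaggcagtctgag
Asns: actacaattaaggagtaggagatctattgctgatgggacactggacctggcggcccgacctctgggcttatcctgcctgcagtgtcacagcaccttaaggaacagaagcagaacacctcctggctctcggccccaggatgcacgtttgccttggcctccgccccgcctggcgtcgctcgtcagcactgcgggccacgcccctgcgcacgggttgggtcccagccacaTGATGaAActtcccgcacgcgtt

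The composite elements of 4 genes are set under each other, each within 30 bases and on the strand that reads TGATG. That of *Trib3* lies just after the annotated start, at chr2:152344028-152344057.
Chac1: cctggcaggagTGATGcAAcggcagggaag
Trib3: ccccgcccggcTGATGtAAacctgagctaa
Asns: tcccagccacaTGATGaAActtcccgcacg
Herpud1: ggggtgcgggcTGATGcAAcccgccgtggt

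Library totals ranged from 26857070 to 36615194 counts. *Tnks*, the siRNA target, measured 69.0, 58.4 and 70.1 CPM (counts per 1000000, scaled by library composition) in the siCtrl libraries and 19.5, 12.7 and 24.0 in the siTnks/2 libraries, and *Tnks2* 118, 119.6 and 115 and 58.2, 44.9 and 61.2. Both were lower in all 3 siTnks/2 libraries. Of the chondrocyte markers all 8 were detected, with a summed level of 24660 to 33670 CPM with DMSO, 33790 to 52940 with XAV939, 80330 to 103500 with IWR-1, 73720 to 100500 with siCtrl and 106800 to 179900 with siTnks/2. Of these 8 markers 3 were called higher after the knockdown, 3 with XAV939 and 8 with IWR-1, or 6, 8 and 8 with the replicate number as a block, so cartilage identity moved along with each comparison against a control, and its part in them was not tested. The 5 fibroblast and synovial markers summed to 643 to 1421 CPM with DMSO, 399 to 1318 with XAV939 and 348 to 990 with IWR-1, with replicate 3 highest in each drug group. These sums were mostly *Prg4* (552, 467 and 1124 CPM with DMSO), which the study also lists as a cartilage-signature gene. Of the 5 markers 2 were called lower with each inhibitor (4 with IWR-1 under the block). With IWR-1 1 was called higher, and under the block 1 with each inhibitor. The 4 osteoblast markers summed to 42.2 to 131 CPM, and 2 were called higher with each inhibitor, and under the block 2 after the knockdown. Leukocyte markers summed to at most 11.7 CPM in a library, with 2 called lower with IWR-1, and muscle markers to at most 6.91 CPM. Endothelial markers summed to 7.38 CPM in siTnks/2 replicate 2 and to at most 0.796 CPM in the other libraries, with *Tie1* at 0 in all of those others. In bulk RNA, fewer cells of a type and less RNA per cell cannot be told apart. The spans of *Hspa5*, *Pdia3*, *Ddit3*, *Syvn1* and *Fkbp10* overlap another counted gene, so part of their reads is uncertain.

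The list spans a wide range of levels. Scaled per kilobase of exon, the mean level with DMSO was highest for *P4hb* at 1077 CPM per kb, then *Calr* at 685 and *Serpinh1* at 668, while *Ern1* stood at 3.62, *Ero1b* at 0.989 and *Derl3* at 0.329. With siCtrl the same 3 genes led, in the order *Serpinh1* (920), *P4hb* (726) and *Calr* (485 CPM per kb). *Ero1a* was the 7th highest of the 40 with DMSO, at 229 CPM per kb, and the 21st with siCtrl, at 44.9. The experiments have separate control cells and tables, so this gap between controls is a description.

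A gene is called where its adjusted p is under 0.05 in edgeR's quasi-likelihood test, with Benjamini-Hochberg adjustment over all genes tested. After the knockdown 11 of the 40 genes were called, all 11 higher, where 18.0% of all genes were called in either direction, 10.4% higher and 7.61% lower. With XAV939 there were 6, of which 2 were higher and 4 lower, where 17.4% of all genes were called, 7.57% higher and 9.85% lower. With IWR-1 there were 17, of which 11 were higher and 6 lower, where 36.4% of all genes were called, 16.2% higher and 20.2% lower. Nothing is read from these counts, since these comparisons were known when the genes were picked. The median log2 fold change of the 40 genes was 0.18 after the knockdown, -0.098 with XAV939 and 0.10 with IWR-1, against -0.0012, 0.016 and 0.0056 over all genes tested. *Ero1a*, *Trib3* and *Chac1* were called in all 3 comparisons, 5 genes in 2, 15 in 1 and 17 in none. When the replicate number was kept as a block, the same genes were called and further ones were added, for 18 after the knockdown, 10 with XAV939 and 20 with IWR-1, where 34.6%, 33.4% and 47.5% of all genes were called. Under the block *Ddit3* and *Herpud1* joined the genes called in all 3. Calls, genes given as not called, SEs, intervals and p-values are those of the edgeR fit without the block unless another fit is named. The fits that leave out a library have no block either, so calls lost in them were not tried with the block. The added genes were *Atf4*, *Atf6*, *Creb3l2*, *Herpud1*, *Manf* (lower), *Ppp1r15a* and *Sel1l* after the knockdown, *Asns*, *Creb3l1* (lower), *Ddit3* and *Herpud1* with XAV939, and *Atf6*, *Creb3l2* and *Ern1* with IWR-1. The knockdown count changed with the library left out: it was 4, 6 and 3 without siCtrl replicate 1, 2 or 3, and 5, 12 and 11 without siTnks/2 replicate 1, 2 or 3. Without DMSO replicate 1 the XAV939 count was 2. The IWR-1 count stayed between 15 and 21 whichever library was left out.

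**Figure D1:**
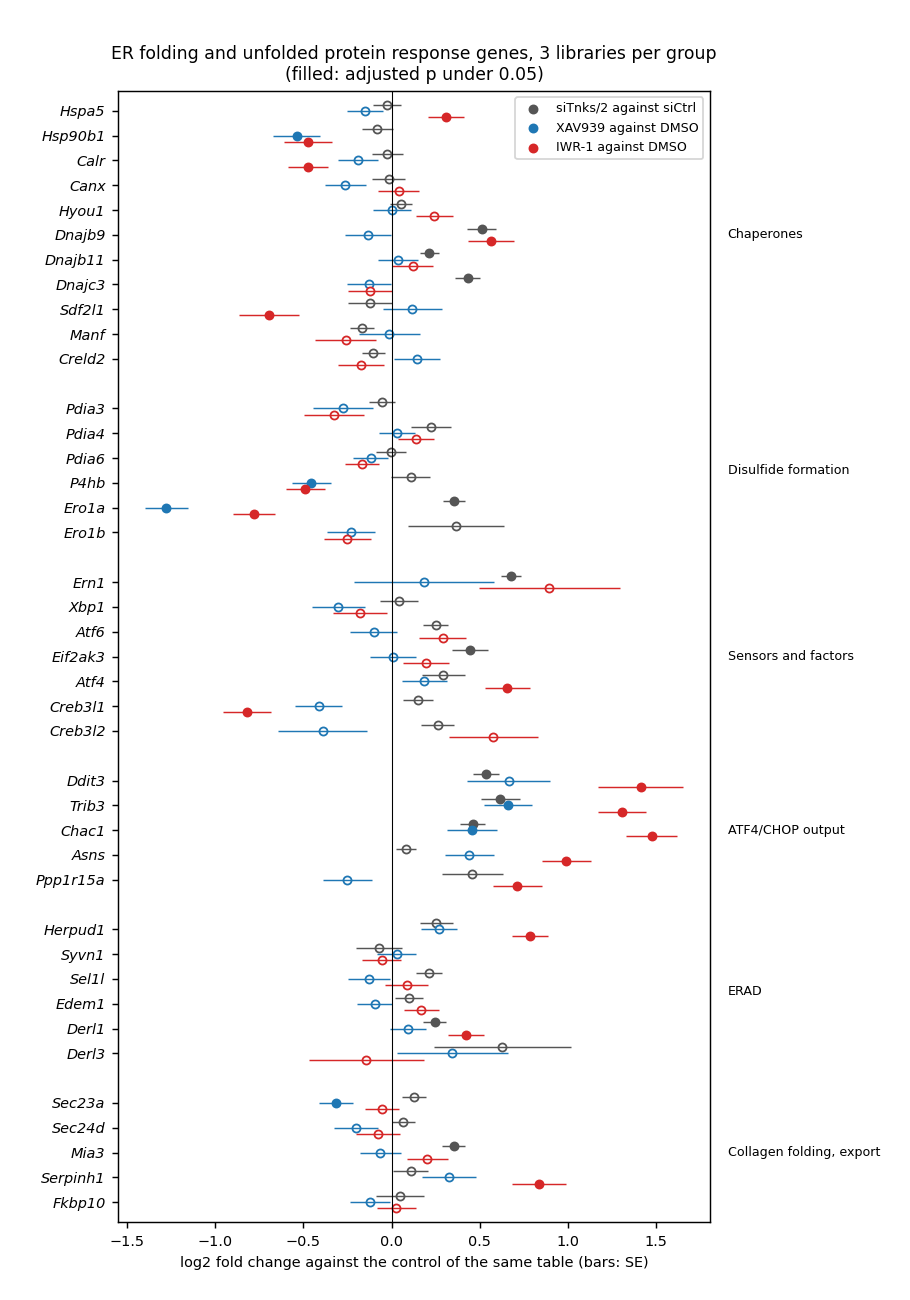
The horizontal axis gives the log2 fold change of each of the 40 genes against its own control, with bars of 1 SE, for the knockdown (grey), XAV939 (blue) and IWR-1 (red), 3 libraries per group; filled points are called. The 5 genes of ATF4 and CHOP output lie between 0.71 and 1.48 with IWR-1, while *Ero1a* is at 0.36 after the knockdown and at -1.28 with XAV939.

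The output genes of ATF4 and CHOP had the highest median of the 6 roles in each of the 3 comparisons. All 5 were called higher with IWR-1, with a median log2 fold change of 1.31, where 16.2% of all genes were called higher. After the knockdown 3 of 5 were called higher (median 0.46) and with XAV939 2 of 5 (median 0.46), or 4 of 5 in each under the block. Of all genes 10.4% and 7.57% were called higher in these comparisons, and under the block 34.6% and 33.4% were called in either direction. *Chac1*, an enzyme that degrades glutathione, measured 33.4, 36.9 and 29.8 CPM with DMSO, 46.2, 53.9 and 37.3 with XAV939 and 93.9, 101 and 83.9 with IWR-1. Every IWR-1 library was above every DMSO and XAV939 library, and the XAV939 libraries were all above DMSO, though the highest DMSO value lay just under the lowest with XAV939. The log2 fold change was 1.48 ± 0.14 (SE, n = 3 per group) with IWR-1 and 0.46 ± 0.14 with XAV939. The latter was at the limit of the call and was lost without DMSO replicate 1 or 3, IWR-1 replicate 1, 2 or 3 or XAV939 replicate 1 or 2 (0.32 to 0.46) or with DESeq2's size factors (0.45) or with no filter on low counts (0.43). In the siRNA experiment *Chac1* measured 84.1, 81.6 and 79.7 with siCtrl and 116, 120 and 102 with siTnks/2, without overlap and with a log2 fold change of 0.46 ± 0.072, a call lost without siCtrl replicate 3 (0.44).

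*Trib3*, a pseudokinase that restrains ATF4, measured 92.9, 120.5 and 102 CPM with DMSO, 162, 193 and 144 with XAV939 and 277, 267 and 236 with IWR-1. The 3 groups did not overlap, and the log2 fold changes were 0.66 ± 0.14 with XAV939 and 1.31 ± 0.14 with IWR-1. It measured 138, 142 and 129.9 with siCtrl and 212, 239 and 177 with siTnks/2. These groups did not overlap either, at a log2 fold change of 0.62 ± 0.11, and the call was lost without siCtrl replicate 1, 2 or 3 or siTnks/2 replicate 1 (0.59 to 0.65). *Ddit3* codes for CHOP, the factor linked to cell death under ER stress. Its levels were 104, 125 and 91.5 CPM with DMSO, 152, 242 and 115 with XAV939 and 295, 319 and 241 with IWR-1. XAV939 replicate 2 reached the lowest IWR-1 library and replicate 3 lay within the DMSO range, and the log2 fold changes were 0.67 ± 0.24 (not called) and 1.41 ± 0.24 (called). With siCtrl it measured 129.8, 116 and 125 and with siTnks/2 189, 183 and 167, a log2 fold change of 0.54 ± 0.071 that was called in every fit run.

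*Asns*, asparagine synthetase, measured 168, 208 and 151 CPM with DMSO, 270.1, 231 and 216 with XAV939 and 379, 353 and 317 with IWR-1. The IWR-1 libraries were the highest, and those with XAV939 were above all DMSO libraries without being called, at log2 fold changes of 0.99 ± 0.14 and 0.44 ± 0.14. It was not called in the siRNA experiment, with 225, 213 and 211 against 235, 223 and 228 and a log2 fold change of 0.082 ± 0.057. *Ppp1r15a* codes for GADD34, which brings a phosphatase to eIF2α and ends the translation block. Its levels were 149, 158 and 146 CPM with DMSO, 118, 156 and 107 with XAV939 and 236, 276 and 232 with IWR-1, where the XAV939 libraries reached below and into the DMSO range and the IWR-1 libraries lay above both. The log2 fold changes were 0.71 ± 0.14 with IWR-1, -0.25 ± 0.14 with XAV939 (not called) and 0.46 ± 0.17 after the knockdown (not called, 127, 157 and 118 against 176, 229 and 148 CPM).

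**Figure D2:**
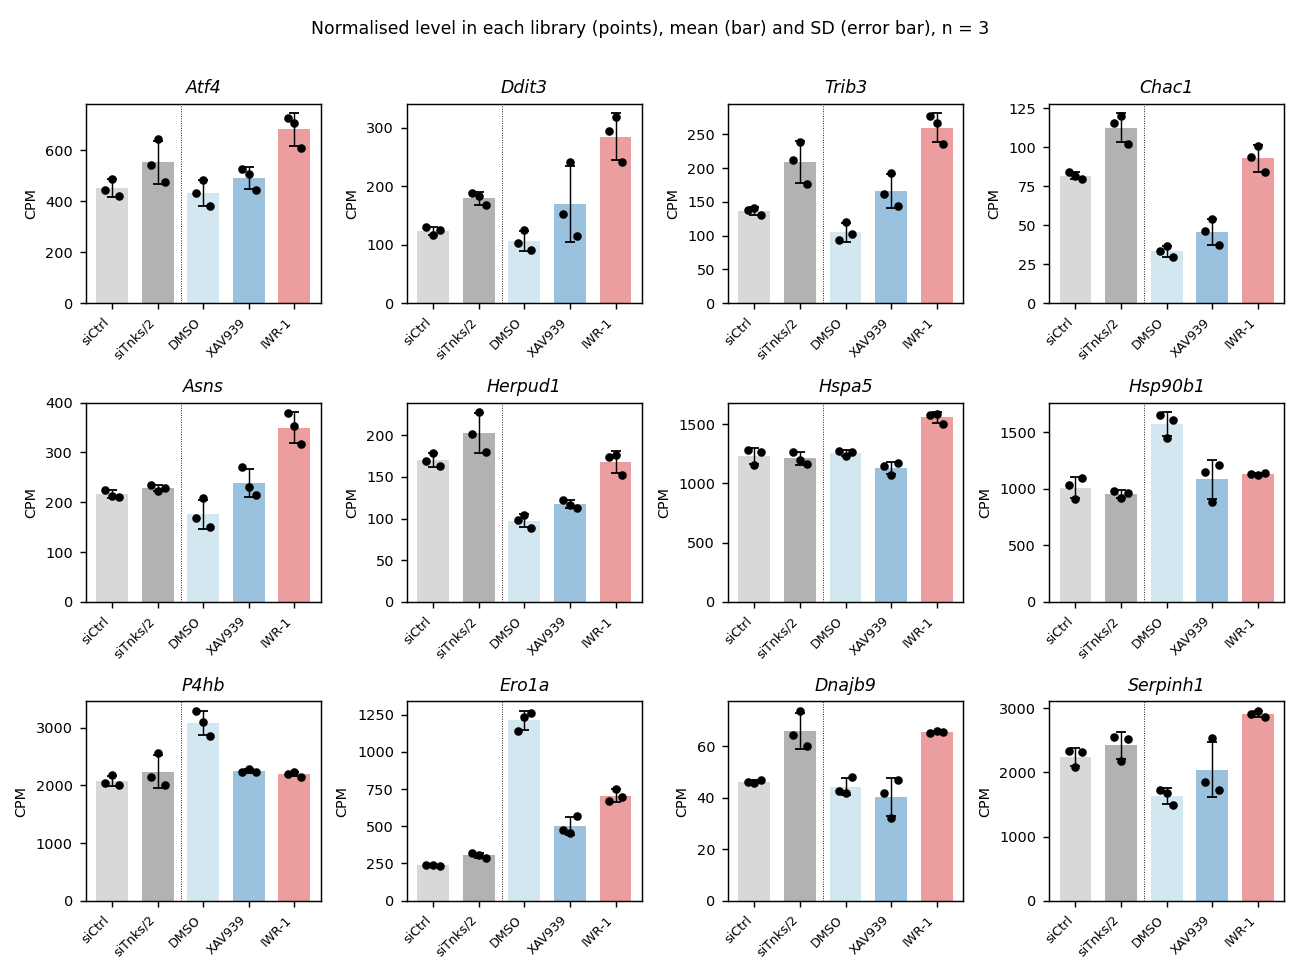
Each panel gives the level of a gene in CPM on an axis from 0, with a point per library, a bar at the mean of 3 libraries and an error bar of 1 SD; the dotted line parts the siRNA from the drug experiment. *Chac1*, *Trib3* and *Asns* are highest with IWR-1 in the drug experiment, while *Ero1a*, *P4hb* and *Hsp90b1* are highest with DMSO.

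Among the 7 sensors and factors, 2 were called after the knockdown, 0 with XAV939 and 2 with IWR-1 by edgeR, where 18.0%, 17.4% and 36.4% of all genes were called. With XAV939 1 of the 7, *Creb3l1*, was under 0.05 without adjustment, and DESeq2 and the fit with a block called it lower. The block called 5 of the 7 after the knockdown and 5 with IWR-1, where it called 34.6% and 47.5% of all genes. *Ern1*, which codes for IRE1α, measured 63.7, 63.3 and 60.5 CPM with siCtrl and 103, 96.0 and 101 with siTnks/2, without overlap, at a log2 fold change of 0.68 ± 0.055 that was called in every fit run. In the drug experiment it scattered widely: 22.3, 17.6 and 48.8 with DMSO, 19.4, 46.1 and 35.4 with XAV939 and 37.6, 56.6 and 70.7 with IWR-1, with DMSO replicate 3 above the other DMSO libraries. It was not called there without the block. Matched by replicate number, IWR-1 was above DMSO in every pair, and the block called *Ern1* higher with IWR-1. XAV939 was above DMSO in some pairs and below it in others. *Eif2ak3*, which codes for PERK, was higher after the knockdown by 0.44 ± 0.10, with 79.1 to 85.0 CPM in siCtrl and 100.4 to 129.8 in siTnks/2 libraries. That call was lost without siCtrl replicate 1, 2 or 3 or siTnks/2 replicate 1 (0.43 to 0.49). *Atf6* was at 0.25 after the knockdown, -0.10 with XAV939 and 0.29 with IWR-1, and *Xbp1* at 0.041, -0.30 and -0.18, and neither was called.

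*Atf4*, the transcript of the factor that PERK lets through, measured 431, 483 and 382 CPM with DMSO, 525, 506 and 444 with XAV939 and 727, 707 and 609 with IWR-1. Only the IWR-1 libraries stood clear of the others, at a log2 fold change of 0.66 ± 0.13, against 0.19 ± 0.13 with XAV939. After the knockdown it was at 0.29 ± 0.12 (444, 488 and 421 against 543, 642 and 474), which was not called. *Creb3l1* and *Creb3l2* code for ATF6-like factors, OASIS and BBF2H7, known for their part in the secretion of bone and cartilage matrix. *Creb3l1* measured 207, 188 and 166 CPM with DMSO, 160.3, 113 and 147 with XAV939 and 105, 104 and 108 with IWR-1. These 3 groups did not overlap and stood lower in that order, at -0.41 ± 0.13 (not called) and -0.82 ± 0.13 (called). With siCtrl it measured 66.8, 60.6 and 65.5 and with siTnks/2 73.4, 63.3 and 77.4, which overlap. *Creb3l2* measured 42.6, 37.0 and 72.2 with DMSO, 29.1, 45.9 and 40.9 with XAV939 and 60.6, 77.1 and 88.7 with IWR-1. DMSO replicate 3 lay above the other DMSO libraries and inside the IWR-1 range, and neither comparison was called without the block (-0.39 and 0.58). Matched by replicate number, IWR-1 was above DMSO in every pair, and the block called *Creb3l2* higher with IWR-1. In the siRNA experiment it measured 136, 147 and 136 and 159, 190.5 and 153.

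Of the 11 chaperones of the ER lumen 2 were called higher and 3 lower with IWR-1, where 16.2% of all genes were called higher and 20.2% lower. With XAV939 1 was called lower, where 9.85% of all genes were, and after the knockdown 3 were called higher, where 10.4% were. The IWR-1 and XAV939 counts are near those shares, and nothing is read from them. *Hspa5*, which codes for BiP, the chaperone that also holds the 3 sensors inactive, measured 1275, 1229 and 1263 CPM with DMSO, 1147, 1075 and 1173 with XAV939 and 1577, 1590 and 1505 with IWR-1. All IWR-1 libraries lay above the rest and all XAV939 libraries below DMSO, at log2 fold changes of 0.31 ± 0.10 (called) and -0.15 ± 0.10 (not called). The IWR-1 call was lost without DMSO replicate 1, 2 or 3, IWR-1 replicate 1, 2 or 3 or XAV939 replicate 1 (0.29 to 0.32) or with no filter on low counts (0.30). With siCtrl *Hspa5* measured 1279, 1152 and 1266 and with siTnks/2 1267, 1198 and 1168, a log2 fold change of -0.025 ± 0.079. *Hsp90b1* codes for GRP94, the HSP90 of the ER. It measured 1650, 1448 and 1610 CPM with DMSO, 1148, 883 and 1212 with XAV939 and 1130, 1124 and 1137 with IWR-1, where both inhibitor groups lay below DMSO and overlapped each other. The log2 fold changes were -0.54 ± 0.13 with XAV939, a call lost without DMSO replicate 1 (-0.50), and -0.47 ± 0.13 with IWR-1, a call lost without DMSO replicate 1 or IWR-1 replicate 1 or 2 (-0.48 to -0.44). After the knockdown it was at -0.08 ± 0.089 (1029, 908 and 1090 against 983, 918 and 964). *Calr*, the calcium-binding lectin chaperone, measured 2145, 1923 and 1847 with DMSO, 1825, 1623 and 1735 with XAV939 and 1444, 1397 and 1414 with IWR-1. The 3 groups did not overlap, and the difference from DMSO was called with IWR-1 (-0.48 ± 0.11) and not with XAV939 (-0.19 ± 0.11). It measured 1388, 1359 and 1444 with siCtrl and 1323, 1511 and 1289 with siTnks/2, which overlap (-0.024 ± 0.088).

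The 3 chaperone genes called after the knockdown all code for J-domain partners of BiP. *Dnajb9* (ERdj4) measured 46.1, 45.8 and 47.0 CPM with siCtrl and 64.2, 73.8 and 60.2 with siTnks/2, without overlap, at 0.51 ± 0.082, a call lost without siCtrl replicate 1 or 3 (0.52 to 0.53). In the drug experiment it measured 42.7, 42.0 and 48.1 with DMSO, 42.0, 32.2 and 46.9 with XAV939 and 65.2, 65.9 and 65.5 with IWR-1. IWR-1 stood above both others at 0.57 ± 0.13, while XAV939 overlapped DMSO at -0.13 ± 0.13. *Dnajc3* codes for p58IPK, which also inhibits PERK. It measured 127, 111 and 130.1 with siCtrl and 167, 163 and 167 with siTnks/2, at 0.43 ± 0.072, and that call was lost without siTnks/2 replicate 1 (0.43). It measured 141, 139 and 163 with DMSO, 137, 113 and 156 with XAV939 and 134, 132 and 140.4 with IWR-1, groups that overlap. *Dnajb11* (ERdj3) was higher after the knockdown by 0.21 ± 0.054, a call lost without siCtrl replicate 1, 2 or 3 or siTnks/2 replicate 1 or 3 (0.21 to 0.24) or with no filter on low counts (0.21). *Sdf2l1*, a partner of the ER J-domain proteins, measured 37.0, 33.4 and 23.4 with DMSO, 34.2, 38.5 and 29.3 with XAV939 and 20.7, 19.9 and 17.3 with IWR-1, so that all IWR-1 libraries lay below the rest (-0.70 ± 0.17). In the siRNA experiment it was at 17.4, 12.9 and 15.2 with siCtrl and 14.8, 12.9 and 14.2 with siTnks/2, which overlap. *Canx*, *Hyou1*, *Manf* and *Creld2* were called in none of the 3 comparisons, with log2 fold changes between -0.26 and 0.24.

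*Ero1a*, the oxidase that recharges the disulfide isomerases, showed the largest gap between the experiments among the 40. It measured 1141, 1233 and 1262 CPM with DMSO, 474, 455 and 571 with XAV939 and 667, 753 and 698 with IWR-1. The 3 groups did not overlap, and both inhibitors were well below DMSO at log2 fold changes of -1.28 ± 0.12 and -0.78 ± 0.12. With siCtrl it measured 237, 243 and 232 and with siTnks/2 319, 306 and 286, which was higher in 3 of 3 libraries at 0.36 ± 0.064, a call lost without siCtrl replicate 1 or 3 or siTnks/2 replicate 1 (0.32 to 0.36). *Ero1a* is also known as a target of the hypoxia-inducible factor HIF-1. A list of 13 other HIF targets summed to 10620 to 12680 CPM with DMSO, 7767 to 8652 with XAV939 and 6147 to 6678 with IWR-1, and to 4222 to 5053 with siCtrl and 3416 to 3710 with siTnks/2. Of these 13, 11 were called lower with XAV939, 13 with IWR-1 and 3 after the knockdown, or 8 after the knockdown under the block. Of all genes 9.85%, 20.2% and 7.61% were called lower in these comparisons without the block. With XAV939 *Egln3* was at -1.75 ± 0.10 and *Adm* at -1.58 ± 0.11. All 13 had a negative log2 fold change in all 3 comparisons, the direction of *Ero1a* in the drug experiment and the opposite of it in the siRNA experiment, and their part in its change was not tested.

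*P4hb*, protein disulfide isomerase and the β subunit of collagen prolyl 4-hydroxylase, measured 3282, 3099 and 2861 CPM with DMSO, 2233, 2285 and 2224 with XAV939 and 2199, 2234 and 2153 with IWR-1. Both inhibitor groups lay below DMSO and overlapped each other, at -0.46 ± 0.11 and -0.49 ± 0.11. The XAV939 call was lost without DMSO replicate 1 or XAV939 replicate 1 (-0.45 to -0.41). With siCtrl it measured 2039, 2180 and 2009 and with siTnks/2 2150, 2553 and 2009, which overlap. *Pdia3*, *Pdia4*, *Pdia6* and *Ero1b* were not called, and *Pdia3* in XAV939 replicate 2, at 743 CPM, stood apart from 1224 and 1131 in the other replicates.

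Of the 6 genes of ER-associated degradation *Herpud1* and *Derl1* were called. Under the block 3 of the 6 were called after the knockdown and 1 with XAV939, where 34.6% and 33.4% of all genes were called. *Herpud1* codes for a membrane protein of the degradation complex. It measured 97.9, 105 and 89.0 CPM with DMSO, 122, 116 and 112 with XAV939 and 174, 176 and 152 with IWR-1. The 3 groups did not overlap and stood higher in that order, at 0.27 ± 0.10 (not called) and 0.78 ± 0.10 (called). In the siRNA experiment it measured 169, 178 and 163 and 201, 228 and 180.2, without overlap, at 0.25 ± 0.094 (not called). *Derl1*, a part of the channel through which misfolded proteins leave, measured 139, 163 and 141 with DMSO, 163, 146 and 163 with XAV939 and 208, 202 and 184 with IWR-1, and IWR-1 stood above the rest at 0.42 ± 0.10. It measured 164, 168 and 159 with siCtrl and 201, 201 and 180.2 with siTnks/2, at 0.25 ± 0.065, a call lost without siCtrl replicate 1, 2 or 3 or siTnks/2 replicate 1 or 2 (0.22 to 0.27) or with no filter on low counts (0.24). *Syvn1*, *Sel1l* and *Edem1*, the ligase HRD1, its adaptor and a mannose-trimming factor, were not called, with log2 fold changes from -0.13 to 0.21. *Derl3* was near the floor, with at most 1.82 CPM in a library.

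*Serpinh1*, which codes for HSP47, the chaperone of procollagen, measured 1722, 1678 and 1494 CPM with DMSO, 1858, 2536 and 1733 with XAV939 and 2904, 2961 and 2865 with IWR-1. All IWR-1 libraries were above the others, and XAV939 replicate 2 lay well above the other replicates of its group. The log2 fold changes were 0.83 ± 0.15 with IWR-1 (called) and 0.32 ± 0.15 with XAV939 (not called), and after the knockdown 0.11 ± 0.099 (2333, 2087 and 2322 against 2559, 2185 and 2524). *Mia3* codes for TANGO1, which loads procollagen into carriers. It was higher after the knockdown, with 218 to 222 CPM in siCtrl and 269 to 300.4 in siTnks/2 libraries, by 0.35 ± 0.065, a call lost without siCtrl replicate 1, 2 or 3 (0.35 to 0.36). *Sec23a*, a coat subunit of these carriers, measured 176, 180.3 and 210.1 with DMSO, 148, 149 and 157 with XAV939 and 176, 181 and 189 with IWR-1. XAV939 lay below DMSO in every library, at -0.31 ± 0.098, a call lost without DMSO replicate 1, 2 or 3, IWR-1 replicate 1, 2 or 3 or XAV939 replicate 1, 2 or 3 (-0.36 to -0.24) or with upper-quartile scaling (-0.26) or with no filter on low counts (-0.34). It measured 236, 242 and 229 with siCtrl and 246, 277 and 250.3 with siTnks/2. *Sec24d* and *Fkbp10* were not called, with log2 fold changes from -0.20 to 0.066.

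Collagen transcripts were set beside these genes. Of 11 fibril collagens, 3 were called after the knockdown, all higher: *Col9a2* (0.95), *Col9a3* (1.09) and *Col11a2* (0.68). The same 3 were higher with XAV939 (0.96, 1.16 and 0.74), while *Col1a1* (-1.16), *Col3a1* (-1.18), *Col5a1* (-0.65) and *Col5a2* (-1.02) were lower. With IWR-1 *Col2a1*, *Col9a1*, *Col9a2*, *Col9a3*, *Col11a1* and *Col11a2* were higher, by 1.66 to 2.28 on the log2 scale, and *Col1a1* (-1.39), *Col3a1* (-1.54) and *Col5a2* (-1.34) lower. *Col1a2* was called in none of these without the block. Of all genes 18.0% were called after the knockdown, 17.4% with XAV939 and 36.4% with IWR-1, or 34.6%, 33.4% and 47.5% under the block. Under the block 8 of the 11 were called after the knockdown, 6 higher and 2 lower, adding *Col2a1*, *Col9a1* and *Col11a1* (higher) and *Col3a1* and *Col5a2* (lower). With XAV939 the block added *Col2a1* and *Col9a1* (higher) and *Col1a2* (lower, at -0.45 without the block), and with IWR-1 *Col5a1* (lower). The 11 collagens summed to 43130 to 50270 CPM with DMSO, 45920 to 59430 with XAV939 and 96550 to 115500 with IWR-1, and to 93300 to 117900 with siCtrl and 123100 to 190800 with siTnks/2. With IWR-1 the 6 cartilage collagens were thus called higher together with *Serpinh1* and *Hspa5*, while *P4hb*, *Hsp90b1* and *Calr* were called lower, and the part of collagen in these differences was not tested.

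IWR-1 against XAV939 at the same dose and time is the difference of the inhibitors' comparisons with DMSO. Both of those were in view when the genes were picked, so the p-values and counts here are not independent of that choice. Of the 40 genes 12 were higher with IWR-1 and 1 was lower, where 7.37% of all genes were called higher and 10.2% lower. The median log2 difference was 0.23, against -0.0032 over all genes tested. *Chac1* rose by 1.02 ± 0.14 (adjusted p = 0.000967, edgeR) and *Ppp1r15a* by 0.96 ± 0.14 (adjusted p = 0.00122), and IWR-1 was higher in 3 of 3 libraries for both. *Dnajb9* followed at 0.70 ± 0.13 (adjusted p = 0.00459), *Trib3* at 0.65 ± 0.14 (adjusted p = 0.00843) and *Herpud1* at 0.52 ± 0.10 (adjusted p = 0.00559). *Sdf2l1* stood lower, at -0.81 ± 0.17 (adjusted p = 0.00809). These 6 calls held in every fit run, and for all 6 the IWR-1 and XAV939 libraries did not overlap.

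The other 7 calls between the inhibitors were each lost in at least 1 fit that left out a library. *Hspa5* was at 0.46 ± 0.10 (adjusted p = 0.0109), lost without IWR-1 replicate 2 (0.45). *Ero1a* was at 0.50 ± 0.12, a call lost without IWR-1 replicate 2 or XAV939 replicate 1 (0.45 to 0.46). *Asns* was at 0.55 ± 0.14 (adjusted p = 0.0207), lost without IWR-1 replicate 1 or 2 or XAV939 replicate 2 or 3 (0.48 to 0.54). *Creb3l2* was at 0.97 ± 0.25 (adjusted p = 0.0239), lost without IWR-1 replicate 2 or 3 or XAV939 replicate 1 or 3 (0.80 to 1.01). *Atf4* was at 0.47 ± 0.13 (adjusted p = 0.0267), lost without IWR-1 replicate 1 or 2 or XAV939 replicate 3 (0.40 to 0.44). *Serpinh1* was at 0.51 ± 0.15 (adjusted p = 0.0416), lost without DMSO replicate 1 or 2, IWR-1 replicate 1, 2 or 3 or XAV939 replicate 1 or 3 (0.41 to 0.52) or with upper-quartile scaling (0.49). *Derl1*, at 0.33 ± 0.10 (adjusted p = 0.0496), was lost without DMSO replicate 1, IWR-1 replicate 1, 2 or 3 or XAV939 replicate 1, 2 or 3 (0.28 to 0.38) or with upper-quartile scaling (0.31) or with no filter on low counts (0.34). The total was 6 without IWR-1 replicate 2, 8 without XAV939 replicate 3 and 19 without DMSO replicate 3, and 22 with the replicate number as a block, where 30.7% of all genes were called. The block added *Ddit3* (adjusted p = 0.0517 without the block and 0.000562 with it), *Atf6*, *Canx*, *Edem1*, *Mia3* and *Sec23a*, all higher with IWR-1, and *Calr*, *Creb3l1* and *Creld2*, all lower.

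No difference between the inhibitors was found for *P4hb*, at -0.034 with a 95% interval of -0.28 to 0.21, nor for *Hsp90b1*, at 0.064 (-0.23 to 0.36), or *Dnajc3*, at 0.0025 (-0.27 to 0.28).

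**Figure D3:**
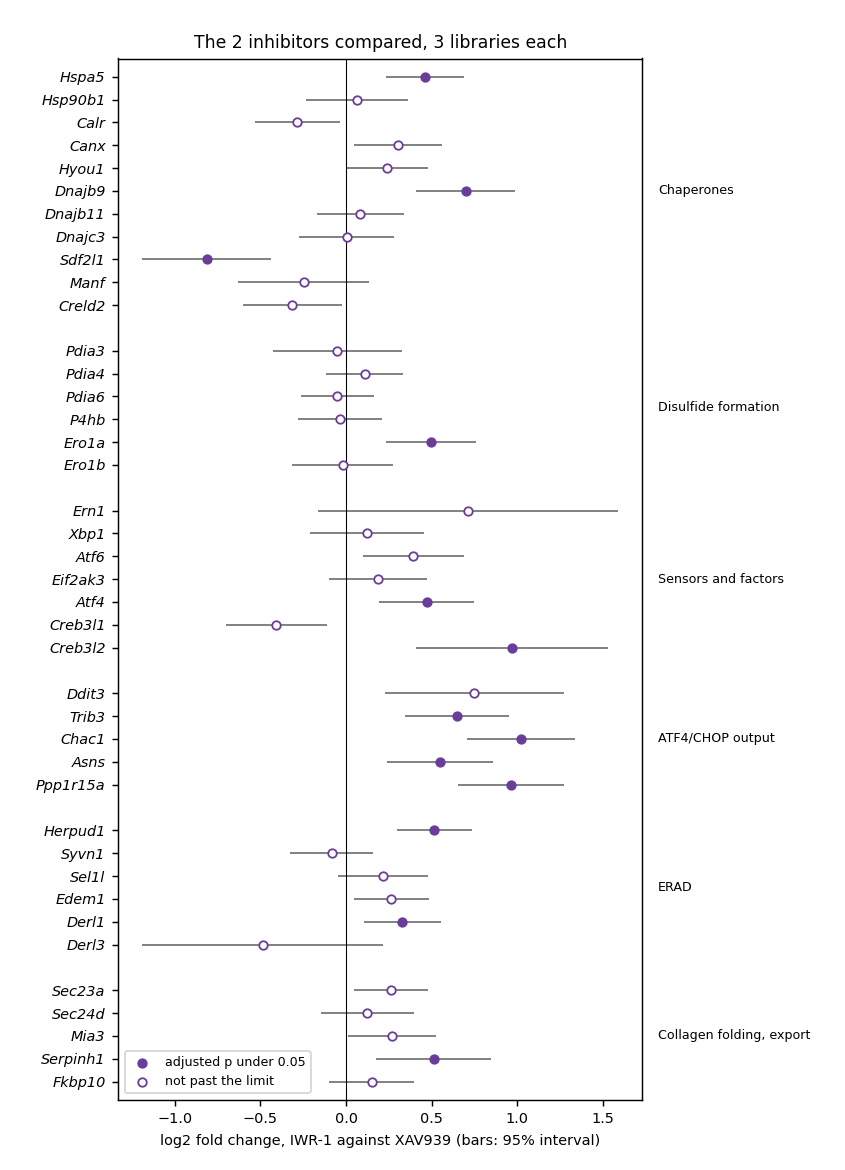
Points give the log2 fold change of IWR-1 against XAV939 for each of the 40 genes, with 95% intervals on the horizontal axis, 3 libraries per group; filled points are called. The 12 genes called higher range from 0.33 (*Derl1*) to 1.02 (*Chac1*), and the 1 called lower is *Sdf2l1* at -0.81.

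Effects of the drugs and of the knockdown were compared in 1 model over the 15 libraries, as the difference of log2 fold changes. Each of these effects was in view when the genes were picked, so the p-values and counts here are not independent of that choice. The XAV939 effect lay below that of the knockdown for 6 of the 40 genes and above it for 0, where 8.07% of all genes were lower and 5.4% higher by edgeR. In the upper direction 1 gene was under 0.05 without adjustment, and DESeq2 called 0 above and 9 below. *Ero1a* was 1 of the 6, at -1.65 ± 0.14, and was picked for this. The others were *Dnajb9* (-0.66 ± 0.17, adjusted p = 0.0181), *P4hb* (-0.58 ± 0.15, adjusted p = 0.0229), *Sec23a* (-0.46 ± 0.12, adjusted p = 0.0254), *Dnajc3* (-0.57 ± 0.16, adjusted p = 0.0263) and *Creb3l1* (-0.58 ± 0.17, adjusted p = 0.0369). *Dnajb9* and *Ero1a* were called in every fit run. *P4hb* was lost without siCtrl replicate 1 or 3, DMSO replicate 1 or XAV939 replicate 1 (-0.57 to -0.53), *Sec23a* without siCtrl replicate 1 or 3, siTnks/2 replicate 2 or XAV939 replicate 1 (-0.46 to -0.40), *Dnajc3* without siCtrl replicate 2, siTnks/2 replicate 1, DMSO replicate 3 or XAV939 replicate 1 (-0.57 to -0.49) and *Creb3l1* without siCtrl replicate 1, 2 or 3, siTnks/2 replicate 1 or 3 or DMSO replicate 1 (-0.61 to -0.50) or with upper-quartile scaling (-0.51). With the block 14 genes were lower and 0 higher, where 15.4% of all genes were lower and 12.7% higher. Those added were *Atf6*, *Creb3l2*, *Eif2ak3*, *Ero1b*, *Hsp90b1*, *Mia3*, *Ppp1r15a* and *Sel1l*. For *Trib3* and *Chac1* no difference between XAV939 and the knockdown was found, at 0.029 (-0.37 to 0.43) and -0.018 (-0.39 to 0.35).

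The IWR-1 effect differed from that of the knockdown for 11 genes, 6 above and 5 below, where 10.5% of all genes were above and 13.9% below. Above it were *Chac1* (1.0 ± 0.17, adjusted p = 0.000825), *Asns* (0.90 ± 0.16, adjusted p = 0.0011), *Serpinh1* (0.72 ± 0.19, adjusted p = 0.0142), *Herpud1* (0.52 ± 0.14, adjusted p = 0.0131), *Trib3* (0.68 ± 0.19, adjusted p = 0.0163) and *Ddit3* (0.87 ± 0.29, adjusted p = 0.0396). Below it were *Ero1a* (-1.14 ± 0.14, a description), *Creb3l1* (-0.98 ± 0.17, adjusted p = 0.000813), *P4hb* (-0.61 ± 0.15, adjusted p = 0.00957), *Dnajc3* (-0.57 ± 0.16, adjusted p = 0.0158) and *Calr* (-0.46 ± 0.14, adjusted p = 0.0272). Of these, 8 were called in every fit run. *Ddit3* was lost without siCtrl replicate 1, 2 or 3, siTnks/2 replicate 1, 2 or 3, DMSO replicate 1 or 3, IWR-1 replicate 1 or 2 or XAV939 replicate 1 (0.76 to 0.91), *Calr* without siCtrl replicate 1 or 2, DMSO replicate 1 or IWR-1 replicate 2 or 3 (-0.47 to -0.42) and *Trib3* without DMSO replicate 1 or IWR-1 replicate 1 (0.58 to 0.62). The block called 16 genes, where 36.3% of all genes were called, adding *Atf4* and *Hspa5* above and *Ero1b*, *Hsp90b1* and *Sdf2l1* below. For *Dnajb9*, called higher after both, no difference was found, at 0.042 with a 95% interval of -0.31 to 0.40.

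The values by promoter element are a description. The 4 genes with the composite element of ATF4 targets were all called higher with IWR-1, by 0.78 to 1.48 on the log2 scale, and 2 of them with XAV939 (4 under the block) and 2 after the knockdown. Of all genes 16.2%, 7.57% and 10.4% were called higher in these comparisons, and 33.4% in either direction with XAV939 under the block. The 4 genes were also all higher with IWR-1 than with XAV939, by 0.52 to 1.02, where 7.37% of all genes were called higher. Of the 10 genes with an ER stress response element, *Hspa5* was called higher and *Hsp90b1* and *Calr* lower with IWR-1, in a range of -0.48 to 0.31 with a median of -0.16. Of all genes 16.2% were called higher and 20.2% lower with IWR-1. *Herpud1*, with both a composite element and the second form of the ER stress response element, was among the genes called higher.

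The rest of the pathway was followed in 147 genes of 6 lists that share no gene with the 40, of which 145 were tested. These lists too were chosen with earlier results known, so their values are given without p-values and their calls are a description. Called were 29 after the knockdown (24 higher and 5 lower), 20 with XAV939 (12 and 8) and 37 with IWR-1 (25 and 12). Of all genes tested 18.0%, 17.4% and 36.4% were called in these comparisons, with 10.4%, 7.57% and 16.2% higher. Between the inhibitors 17.6% of all genes were called. These shares stand beside the counts of each list below. Of the 28 other genes of the integrated stress response, 21 were called with IWR-1, 18 higher and 3 lower, with a median log2 fold change of 0.77. They include *Cth* (1.27 ± 0.11), *Wars1* (1.57 ± 0.15) and *Mthfd2* (1.04 ± 0.10), enzymes of cysteine synthesis, tRNA charging and one-carbon metabolism. *Ddit4* (-0.98 ± 0.095), *Gdf15* (-0.76 ± 0.092) and *Vldlr* (-0.52 ± 0.11) were lower. With XAV939 13 were called, 10 higher and 3 lower (median 0.22), with *Cth* at 0.62 ± 0.11, *Wars1* at 0.82 ± 0.15 and *Phgdh* at 0.88 ± 0.18, and with *Vldlr* (-0.76), *Atf3* (-0.95) and *Gdf15* (-0.51) lower. After the knockdown 7 were called, 6 higher and 1 lower (median 0.18): *Atf3* at 0.73 ± 0.10, *Gpt2* at 0.43 ± 0.063 and *Nupr1* at 0.32 ± 0.073 were higher and *Phgdh* (-0.28 ± 0.076) lower. Between the inhibitors 18 were called, 16 higher with IWR-1, led by *Aldh1l2* (1.16 ± 0.15), and 2 lower, *Ddit4* and *Cebpb* (-0.81 and -1.36). The knockdown count was 2 without siCtrl replicate 1, 2 or 3 or siTnks/2 replicate 1, and 15 with the replicate block. The XAV939 count was 8 without DMSO replicate 1.

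Of 31 tested folding enzymes and chaperones, 10 were called after the knockdown, 7 higher, led by the thioredoxin-like *Tmx1* (0.52 ± 0.047), and 3 lower, *Fkbp11* (-0.47), *Pdia5* (-0.40) and *Txndc5* (-0.25). With XAV939 2 of the 31 were called, *Cnpy3* (0.35) and *Qsox1* (-0.39). With IWR-1 9 were, 3 higher and 6 lower, among them the glucosidase genes *Mogs* (0.52) and *Ganab* (0.37) and the sulfhydryl oxidase *Qsox1* (-0.62). Of 21 degradation genes 5 were called after the knockdown, all higher, with *Edem3* (0.70) and the lectin *Os9* (0.46) leading, 2 with XAV939 and 1 with IWR-1. Of 23 genes of translocation into the ER 2, 2 and 1 were called, with *Sec62* at 0.44 after the knockdown. Of 26 tested COPII transport genes 2, 1 and 2 were called, and of 16 further transducers 3, 0 and 3. For the 0 with XAV939 by edgeR, 2 were under 0.05 without adjustment, and DESeq2 called 1, *Wfs1*. *Wfs1*, an ER membrane protein lost in Wolfram syndrome, was higher after the knockdown (0.50 ± 0.064) and with IWR-1 (1.06 ± 0.19). Under the block the calls after the knockdown were 21 for folding, 9 for degradation, 7 for translocation, 6 for COPII transport and 5 for transducers. With XAV939 they were 7 for folding, 4 for degradation, 5 for COPII transport and 2 for transducers. With IWR-1 they were 4 for degradation, 3 for translocation and 5 for transducers. The block called 34.6%, 33.4% and 47.5% of all genes in these 3 comparisons.

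The knockdown and XAV939 counts of the 145 genes moved with the fit: they were 63 and 39 with the replicate block, where 34.6% and 33.4% of all genes were called. The knockdown count was 6 without siCtrl replicate 1, 9 and 8 without siCtrl replicate 2 or 3, and 8 without siTnks/2 replicate 1. The XAV939 count was 8 without DMSO replicate 1 and 13 without IWR-1 replicate 2, XAV939 replicate 1 or XAV939 replicate 2.

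**Figure D4:**
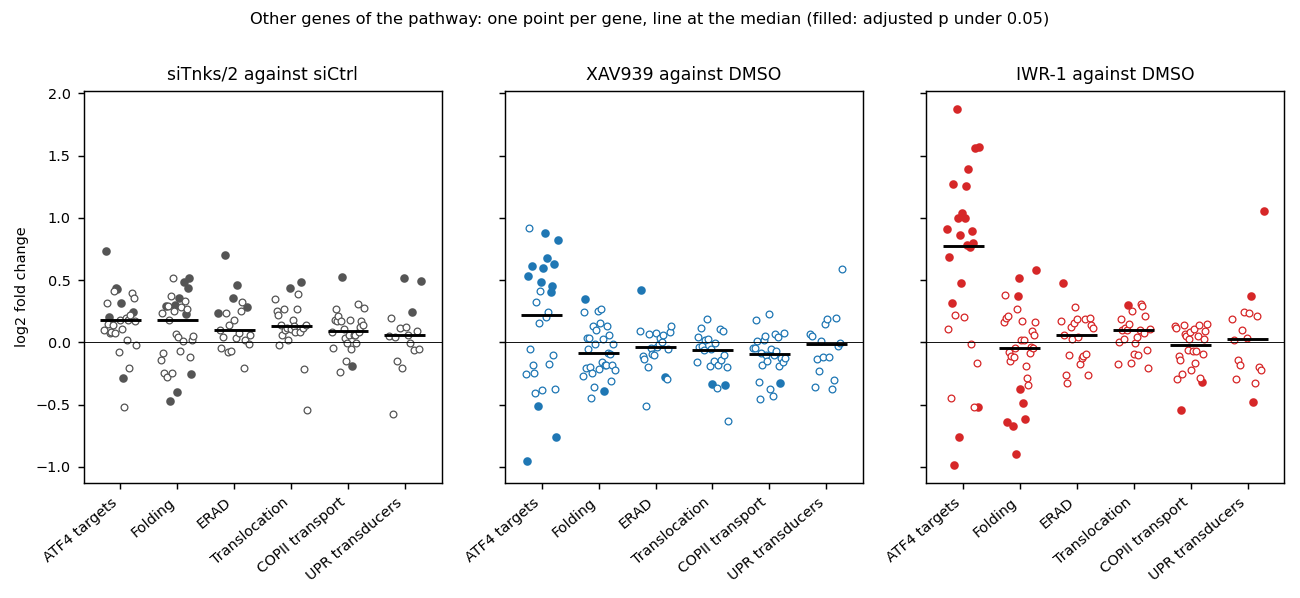
Each point is a gene of 1 of 6 lists outside the 40, placed by its log2 fold change on the vertical axis, for the knockdown, XAV939 and IWR-1, with a line at the list's median; filled points are called. With IWR-1 the ATF4 targets have a median of 0.77, while the medians of the 5 other lists lie between -0.045 and 0.098.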

How the data were processed

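RNA from 15 libraries was sequenced on an Illumina HiSeq instrument after library construction with a TruSeq Stranded mRNA kit. According to the submitters' processing notes, reads were handled with Trimmomatic 0.32, TopHat2 2.0.13 and HTSeq 0.6.1p1 on mm10; which gene annotation was used, and whether counting took strand into account, is not given in the sources used here. The authors deposited raw counts per Entrez gene ID in 2 tables, 1 for the siRNA and 1 for the drug experiment, with 26857070 to 36615194 counts per library.

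Genes with low counts were removed with filterByExpr, libraries were scaled by TMM, and each comparison was tested with edgeR 4.0.16 (quasi-likelihood F test, prior count 2, R 4.3.3, limma 3.58.1), with Benjamini-Hochberg adjustment over all genes tested at an adjusted p of 0.05. The drug fit held 9 libraries, the siRNA fit 6, and differences of effects were fitted over all 15. Alternatives were DESeq2 1.42.0, its size factors, upper-quartile scaling, no filter beyond 1 count, the replicate number as a block, and leaving out each library. The test was tried on simulated counts that had the same spread for all genes and no effect of the replicate, so that trial does not cover paired libraries. P-values rest on 3 biological replicates per group, as the study states. Replicate numbers come from the sample titles. Deviations from the group means correlated at 0.1432 to 0.5533 in the 9 same-numbered pairs of the drug experiment and at 0.4237 to 0.5185 in the 3 of the siRNA experiment. Differently numbered pairs correlated at -0.4892 to 0.3184 (18 drug pairs) and -0.4089 to 0.09717 (6 siRNA pairs). The ranges overlap in the drug experiment and not in the siRNA experiment. The numbers were taken to pair the libraries, which is less sure for the drug libraries. Only the fit with the block uses this pairing, while the main fit and the fits that leave out a library do not.

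The 40 genes and all other gene lists were chosen with earlier results of these data known. Values of each library are given for genes called in at least 2 of the comparisons with a control, between the inhibitors or in a difference of effects, and for some further genes of the 40. From the other ER lists the genes named are among the 3 per direction and comparison with the smallest adjusted p. Promoters were read from RefSeq (GRCm38.p6).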

Additional observations from a re-analysis of the deposited data

Results flagged for a closer look

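The effect of an inhibitor differed from that of the knockdown, by edgeR's test of the difference over the 15 libraries, for 13 of the 40 genes. These were 6 genes with XAV939 and 11 with IWR-1, some of them with both, where 13.5% and 24.4% of all genes were called. The counts are near those shares, and nothing is read from them. The drug effects and the knockdown effect were in view when all of these genes were picked, so the calls are not independent of that choice. With XAV939 the effect was lower than after the knockdown for *Ero1a* (-1.65), which was picked knowing this and is a description with both inhibitors, *Dnajb9* (-0.66), *P4hb* (-0.58), *Creb3l1* (-0.58), *Dnajc3* (-0.57) and *Sec23a* (-0.46 on the log2 scale). With IWR-1 it was lower for *Ero1a* (-1.14), *Creb3l1* (-0.98), *P4hb* (-0.61), *Dnajc3* (-0.57) and *Calr* (-0.46). With IWR-1 it was higher for *Chac1* (1.0), *Asns* (0.90), *Ddit3* (0.87), *Serpinh1* (0.72), *Trib3* (0.68) and *Herpud1* (0.52). *Ero1a*, *P4hb*, *Dnajc3* and *Creb3l1* were lower with both inhibitors, which were set against the same DMSO and siRNA libraries. The drug and siRNA libraries have separate controls, so the kind of tankyrase inhibition and the experiment cannot be told apart in these differences.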

How the results depend on the processing

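None of the calls among the 40 genes turned its direction under the alternatives run. With the replicate number as a block, the members called numbered 18 after the knockdown (11 without the block), 10 with XAV939 (6), 22 between the inhibitors (13) and 14 in the XAV939 effect minus that of the knockdown (6). The other ER genes called were 63 after the knockdown (29) and 39 with XAV939 (20), and those of the integrated stress response 15 after the knockdown (7). The block lost no call of the genes named or listed, and counts of smaller lists that it raised by over 1.5 times stand beside them. Leaving out 1 library at a time gave 3 to 12 members after the knockdown, 2 to 7 with XAV939, 6 to 19 between the inhibitors and 3 to 8 for the XAV939 effect minus that of the knockdown. It gave 6 to 29 other ER genes after the knockdown and 8 to 24 with XAV939, and 2 to 8 integrated stress response genes after the knockdown and 8 to 14 with XAV939. The cause of these shifts was not tested, beyond the fewer samples in each such fit. DESeq2, both other scalings and no filter kept these totals within 1.5 times, but by direction DESeq2 called 4 members higher with XAV939 (2 by edgeR) and 3 lower between the inhibitors (1), and it called *Creb3l1* and *Wfs1* with XAV939. Over single genes named, 132 values lost their call under an alternative, 90 gained one, 29 stayed uncalled but moved by over 1 SE, some of them changing sign, and the other 3469 stayed on their side of the threshold. Depth limits *Derl3* most, at no more than 1.82 CPM.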
